A study of Oryza sativa Japonica Group and Oryza sativa Indica Group with 16 samples.

Results

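The subject here is the response of ZS97 (Zhenshan 97), a paddy rice cultivar of the indica type that is sensitive to drought, when its leaves were severely short of water. The comparison was defined by the labels alone: the arrays of ZS97 at D3 (severe drought) were set against the arrays of ZS97 at D0 (no stress), which takes 4 of the 16 arrays of the series, 2 biological replicates in each group, and covers all 57381 probe sets. At D3 the leaves were fully rolled with a relative water content of 65% to 69%, and at D0 it was 94% to 95%. The stages between them were slight drought (D1, 83% to 88%) and moderate drought (D2, 74% to 78%), and IRAT109, a drought-resistant upland cultivar of the japonica type, was sampled at the same stages. The paper describes D0 as the state before drought in a time course, and no unstressed array is labelled for the time of D3. Drought and the age of the leaf can therefore not be told apart in these changes. The labels name no transgene or mutation. All plants grew in PVC pipes, and total RNA came from the middle part of flag leaf blades at the booting stage, so that the values stand for a mixture of leaf cell types in a single organ. Values are signal intensities on a linear scale, changes are differences of log2(intensity + 16), and errors after a change are standard errors of 1 limma model over all arrays. The labels do not say from how many plants a replicate was made, so the p-values measure the spread between these samples.

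A rice leaf that loses water accumulates abscisic acid, which binds its receptors, blocks type 2C protein phosphatases and frees protein kinases that switch on transcription factors of the bZIP family. Their targets include the LEA proteins and dehydrins, hydrophilic proteins that protect membranes and enzymes while a cell dries, and enzymes that make compatible solutes such as proline. Photosynthesis, nutrient uptake and growth are turned down at the same time, and a leaf under prolonged drought can enter senescence, in which chlorophyll is broken down and nutrients are exported.

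In ZS97 leaves 2429 probe sets (4.23% of those tested) were raised at D3 against D0 and 2388 (4.16%) were lowered, at an adjusted p under 0.05 and a fold change over 2. Of these, 666 rose and 748 fell by more than 4-fold, and 123 rose and 69 fell by more than 16-fold. On every one of the 4817 called probe sets the D3 arrays did not overlap the D0 arrays. This follows largely from the calls, because replicates mostly differed by far less than 2-fold. The share without overlap among all probe sets was not counted. The median change over all probe sets was -0.01, close to no change. Replicate arrays differed by a median of 0.068 log2 units at D3 and 0.074 at D0, and by more than 2-fold on 1 and 3 probe sets. The ratio of the 3′ to the 5′ control probe sets was 6.65 and 6.81 at D3 and 6.52 and 6.36 at D0 for actin, and 3.69 and 3.56 at D3 and 3.38 and 2.93 at D0 for GAPDH. Of the raised probe sets, 139 had a mean below 16 at D0, and of the lowered ones 153 had a mean below 16 at D3. For these dim probe sets the constant of 16 makes the stated change smaller than the ratio of the intensities. The array annotation gave 1 gene symbol to 1706 raised and 1736 lowered probe sets, of which 283 and 338 carry a gene name.

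**Figure D1:**
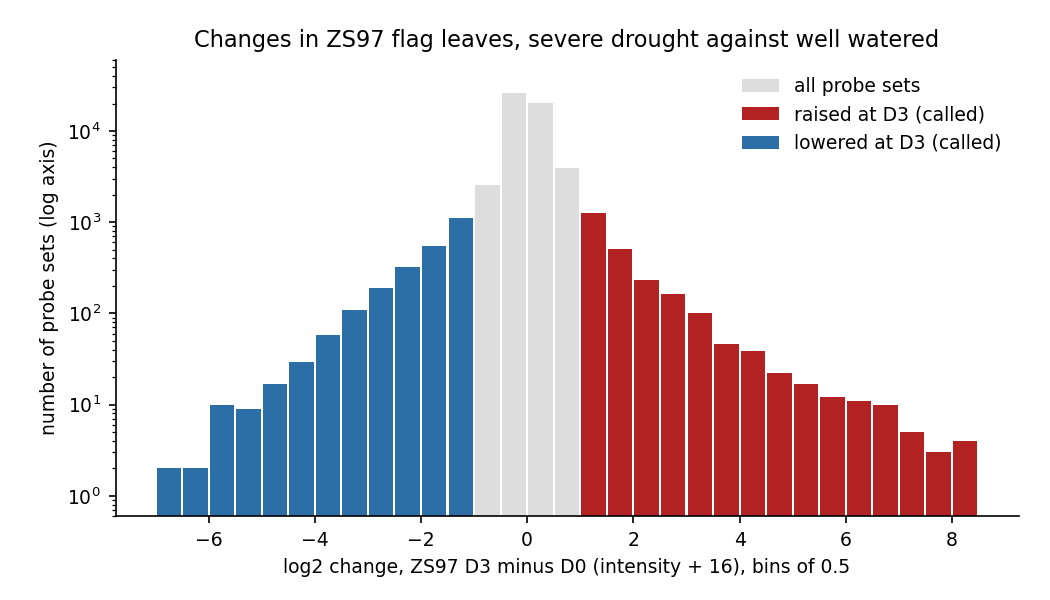
Number of probe sets (log axis) by log2 change between ZS97 D3 and D0 leaves in bins of 0.5, with the 2429 raised probe sets in red, the 2388 lowered ones in blue and the rest in grey. The rises reach further (123 above 4 log2 units) than the falls (69 below -4).

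Most mesophyll markers were bright at both stages, and 2 of their 11 probe sets were dim. Of these probe sets for mesophyll markers (small subunit of Rubisco, chlorophyll a/b-binding protein CAB2R and Rubisco activase), the summed intensity was 27324 and 27356 at D3 and 73589 and 76452 at D0, with 8 lowered and 0 raised. In the other cell type lists 0 of 11 probe sets for meristem and dividing cells were called. For panicle and flower 1 of 16 fell, for root 1 of 5 fell, and of 16 for seed and embryo 1 rose and 1 fell. Over all probe sets 4.23% rose and 4.16% fell. Dim members, below 32 on all 4 arrays, numbered 9 for meristem, 10 for panicle and flower, 2 for root and 9 for seed and embryo. Such members leave little room for a called fall. The glutelin genes differed in level, GLUA-1 with 5.7 and 6.3 at D3 and 6.6 and 6.1 at D0, and GLUA-2, on its brighter probe set, with 218 and 217 at D3 and 373 and 449 at D0 (a change of -0.86, not called). The storage globulin gene GLB, which fell, had 891 and 895 at D3 and 2161 and 2422 at D0, and EM, which is also an LEA gene, rose. Summed over each list, root markers were at 276 and 254 at D3 against 811 and 785 at D0. The called member was the iron transporter gene IRT1, with 16 and 18.4 at D3 and 316 and 307 at D0, and the silicon transporter gene Lsi1, with 206 and 177 at D3 and 405 and 385 at D0, changed by -0.99 and was not called. Seed and embryo markers summed to 1724 and 1756 at D3 and 2878 and 3229 at D0, and meristem markers to 713 and 686 at D3 and 669.8 and 708 at D0. The part of cell type makeup in the changes was not tested. In a whole leaf, fewer cells of a type and less RNA per cell cannot be told apart.

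The largest rise of any named gene belonged to the dehydrin gene RAB21 (LOC4350454). Its intensity was 32004 and 32831 on the D3 arrays, the brightest probe set of both, against 89.5 and 87.4 on the D0 arrays, a change of 8.28 ± 0.062 log2 units (adjusted p = 5.00e-16). The other probe set of RAB21 rose by 8.45. RAB16B (LOC4350453), another dehydrin gene, had 12419.5 and 12342 at D3 and 26.4 and 34.2 at D0, a rise of 8.07 ± 0.073. LEA19 (OsLEA3-1), the gene of a group 3 LEA protein, reached 9624 and 10017 at D3 against 29.2 and 23.1 at D0, a rise of 7.87 ± 0.082 (adjusted p = 5.32e-15). RAB16D (LOC4350451) reached 5650.5 and 5478 at D3 against 57.7 and 62.3 at D0, a rise of 6.20 ± 0.063. Of the 11 probe sets of the LEA and dehydrin list, 9 rose and 0 fell, with a median change of 3.40 against -0.01 over all probe sets. The 2 members that were not called are further probe sets of the dehydrin gene LIP9 and stayed below 30 on all 4 arrays. RAB16D, RAB16C, RAB16B and RAB21 lie next to each other in the gene order and rose by 3.40 to 8.28, but their sequences are much alike, and how far their probes are shared is not known here. OsBURP03 (BURP3, LOC4324159), which encodes an RD22-like BURP domain protein, had 6348 and 5479 at D3 and 392 and 385 at D0, a rise of 3.87 ± 0.066. PM19L1 (LOC4338635), for a small membrane protein linked to abscisic acid and seeds, had 1061 and 1067 at D3 and only 10 and 9.3 at D0, while a second probe set of the gene moved by 0.03.

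**Figure D2:**
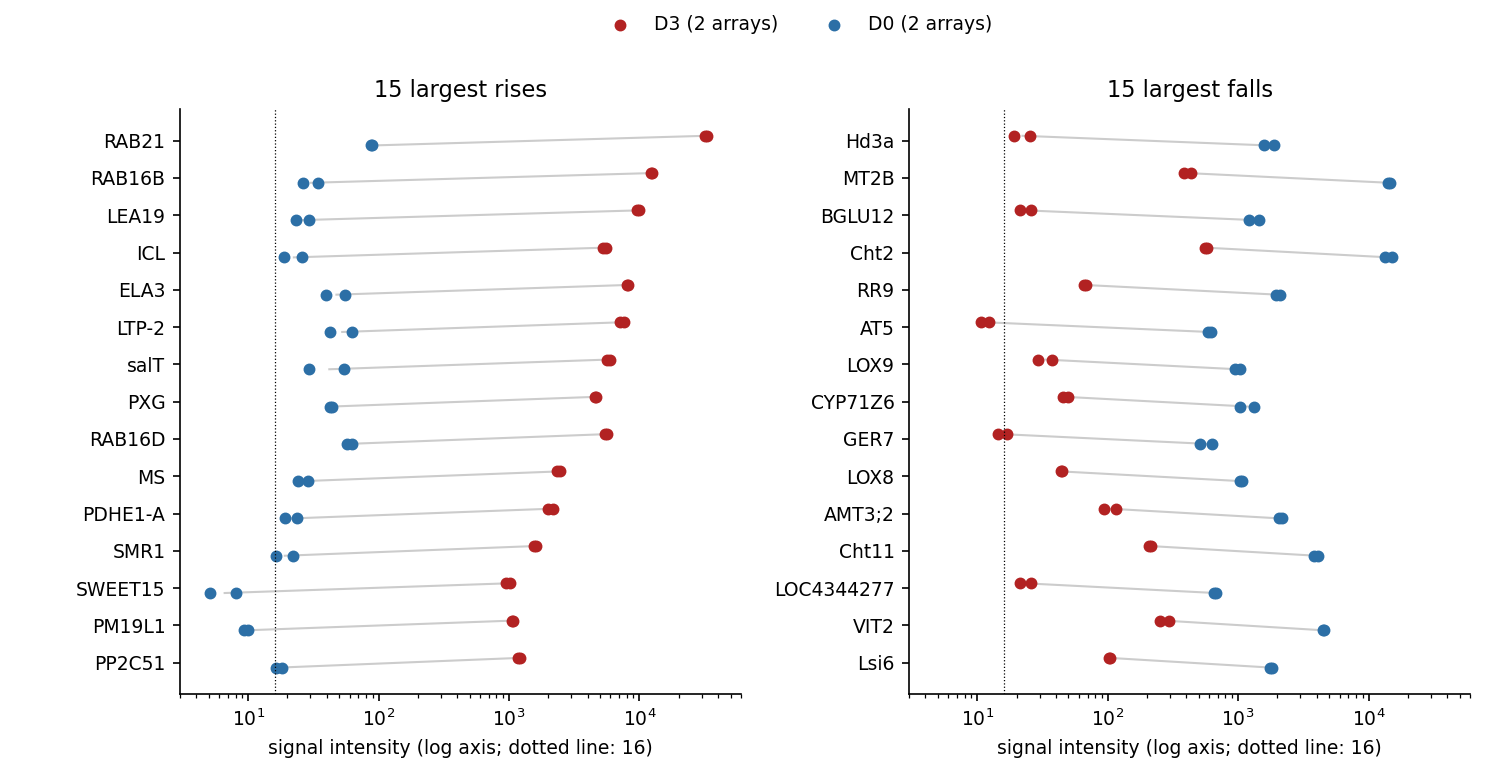
Signal intensity (log axis) on each ZS97 array at D3 (red) and D0 (blue) for the 15 named genes with the largest rises, left, and the 15 with the largest falls, right, with grey lines joining the group means and a dotted line at 16. The replicates lie close together. Only genes whose D3 and D0 arrays did not overlap could be chosen.

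Genes of the glyoxylate cycle, which lets a cell turn the acetyl units of fatty acids into carbohydrate and is best known from germinating seeds and senescing leaves, were among the most strongly raised. ICL (LOC4343441), for isocitrate lyase, had 5507 and 5237 at D3 and 25.9 and 18.9 at D0, a rise of 7.14 ± 0.11 (adjusted p = 9.30e-14). MS (LOC9268154), for malate synthase, the other enzyme that is particular to the cycle, had 2446 and 2352 at D3 and 28.6 and 23.9 at D0, a rise of 5.84 ± 0.092. Both enzymes of the cycle were thus near background in well-watered leaves and bright in droughted ones. The third probe set of this list, for a multifunctional protein of fatty acid oxidation, moved by 0.94 and did not pass the 2-fold threshold. PDHE1-A (LOC4340640), for an alpha subunit of the pyruvate dehydrogenase complex that makes acetyl-CoA, had 2186 and 1994 at D3 and 19.3 and 23.8 at D0, a rise of 5.81 ± 0.069. PXG (LOC4336376), for a peroxygenase that acts on fatty acid hydroperoxides at lipid bodies, had 4537 and 4648 at D3 and 42.7 and 44.3 at D0, a rise of 6.28 ± 0.078.

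Several other genes with a very low signal in well-watered leaves were bright at D3. salT (LOC4326471), for a mannose-binding lectin first known from salt-treated rice, had 5921 and 5674 at D3 and 29.3 and 54.4 at D0, a rise of 6.69 ± 0.17. LTP-2 (LOC4331362), for a lipid transfer protein, had 7687 and 7060.3 at D3 and 63 and 42.2 at D0, a rise of 6.77 ± 0.13. ELA3 (LOC4341858), for an early nodulin-like protein, had 8149 and 8024 at D3 and 55.5 and 39.5 at D0, a rise of 7.01 ± 0.1. SWEET15 (LOC4329464) encodes a sugar exporter of the SWEET family. It had 952 and 1009 at D3 and 5.1 and 8.1 at D0, below the constant of 16, a rise of 5.47 ± 0.11. SMR1 (LOC4349289) rose by 5.52, with 1619.5 and 1567 at D3 and 16.2 and 22 at D0. These genes share neither a pathway nor a family, and what they have in common here is the low signal at D0.

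Genes in the lists for the abscisic acid pathway moved in both directions. PP2C51 (LOC4339671), for a type 2C protein phosphatase, had 1219 and 1180.1 at D3 and 16.2 and 18.2 at D0, a rise of 5.19 ± 0.08. PP2C59 rose by 3.61 and PP2C68 by 2.65. PP2C78, of the same large phosphatase family, fell by 2.83, and whether it acts in the pathway is not known from these data. The list of receptors, kinases and phosphatases was matched by name. It took in all numbered type 2C phosphatases, and PYRB and PYRC, whether or not they act in the pathway. Of its 86 probe sets 13 rose and 8 fell, and the median was 0.02, which is therefore not a measure of the pathway alone. Of 8 for synthesis and breakdown of abscisic acid, 2 rose and 1 fell. The 2 that rose were PSY3, for phytoene synthase at the head of the carotenoid route (1387 and 1389 at D3, 125 and 133 at D0, a rise of 3.28 ± 0.071), and ABA8OX1, for an abscisic acid hydroxylase that degrades the hormone (327 and 315 at D3, 79.7 and 87.2 at D0, a rise of 1.76 ± 0.073). The phytoene synthase gene PSY2 went the other way, with 232 and 214 at D3 and 1173 and 1172 at D0.

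Among the transcription factors named here the largest rises were in the HOX family of homeodomain leucine zipper proteins, with 7 of 33 probe sets raised and 1 lowered. HOX22 (LOC4336542) had 4069 and 4210.3 at D3 and 139.9 and 155 at D0, a rise of 4.67 ± 0.068, and HOX24 (LOC4330155) had 945 and 931 at D3 and 25.9 and 13.6 at D0, a rise of 4.76 ± 0.14. HOX29 rose by 4.01 and HOX7 by 2.87. bZIP23, an activator of abscisic acid responses, had 3608 and 3443 at D3 and 1125 and 1119 at D0, a rise of 1.64 ± 0.052 from a level that was already high. The dehydration factor genes DREB1A and DREB1B rose by 2.67 and 2.04. Of 32 bZIP and DREB probe sets, 4 rose and 2 fell. Of 13 NAC probe sets, 4 rose and 0 fell, among them NAC2 by 1.55, NAC048 by 1.24 (its other probe sets moved by -0.11 to 0.08) and NAC067 by 1.12, which are stress-related NAC factors. Of 7 WRKY probe sets 0 rose and 1, WRKY24, fell by 2.33, and the median was 0.11. Heat shock proteins and their factors moved both ways, with 15 of 68 probe sets raised and 15 lowered. HSF05, for a heat shock factor, rose by 4.30 ± 0.13, with 972 and 1033 at D3 and 36.3 and 35.4 at D0, and HSP16.9A, for a small heat shock protein, rose by 3.89.

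Transcripts for the entry step of proline synthesis were raised. P5CS2, for pyrroline-5-carboxylate synthetase, had 1536 and 1589.5 at D3 and 124 and 128 at D0, a rise of 3.48 ± 0.076 (adjusted p = 1.33e-12), while 3 further probe sets of this gene moved by 0.02 to 0.25. P5CS1, the other gene of the enzyme, had 3296 and 3420.3 at D3 and 1192 and 1152 at D0, a rise of 1.51, and OAT, for ornithine aminotransferase, rose by 2.23. TPP1, for a trehalose phosphate phosphatase, fell by 3.30, with 14.9 and 18.2 at D3 and 295 and 314 at D0. Of the 18 probe sets for proline and other osmolytes, 5 rose and 1 fell. In sugar metabolism SSI, for starch synthase I, rose by 3.13, HXK4, for a hexokinase, by 2.69, AMY1.5, for an alpha-amylase, by 2.45 and SUS4, for a sucrose synthase, by 2.38. Of 54 probe sets for sucrose and starch, 6 rose and 2 fell. Of 22 for sugar transporters, 4 rose and 2 fell. SWEET2a rose by 2.12, and the monosaccharide transporter gene MST3 fell by 2.35, with 662 and 684 at D3 and 3547 and 3461 at D0.

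Called genes of chlorophyll breakdown rose, and called photosynthesis genes fell with a single exception. SGR (LOC4347672), the stay-green gene, whose protein starts the removal of magnesium from chlorophyll, had 6580.5 and 6890.5 at D3 and 428 and 470.4 at D0, a rise of 3.86 ± 0.077 (adjusted p = 6.56e-13). NOL, for a chlorophyll b reductase, rose by 1.59, and RCCR1, for red chlorophyll catabolite reductase, by 1.40. Of the 7 probe sets of this list 5 rose and 0 fell, with a median of 1.59. Of 29 probe sets for antenna proteins, Rubisco and chlorophyll synthesis, 14 fell and 1 rose, with a median of -0.98. PORA, for protochlorophyllide oxidoreductase, had 81.7 and 82.6 at D3 and 793 and 799.9 at D0, and fell by 3.05 ± 0.096 on the log2 scale. CHLH, for a subunit of the chelatase that inserts magnesium, had 171 and 184 at D3 and 638 and 603 at D0, and fell by 1.72 ± 0.087, while a second probe set of CHLH moved by 0.24 and was not called. FBP1, for a fructose bisphosphatase, fell by 2.37. The single rise was PPDK2, for pyruvate orthophosphate dikinase, by 1.62. FBP1 remained bright, with 991 and 1013 at D3 against 5205 and 5262 at D0.

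**Figure D3:**
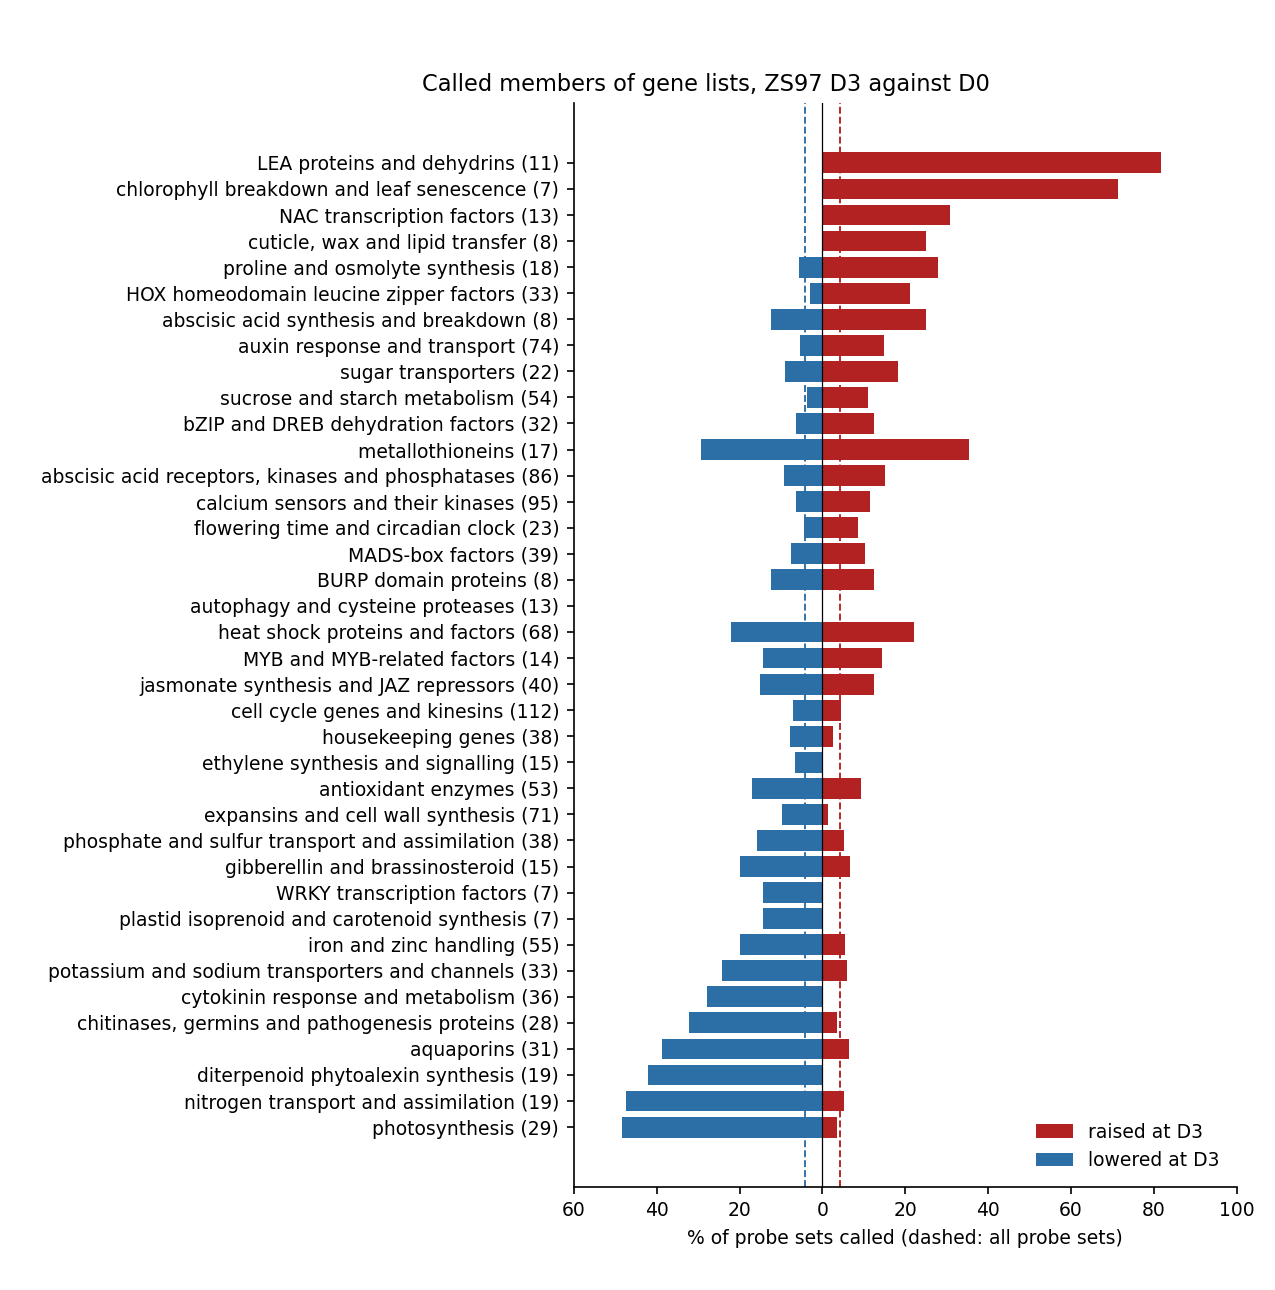
Percent of the probe sets of each gene list with at least 7 probe sets that were raised (red, right) or lowered (blue, left) in ZS97 at D3 against D0, with the number of probe sets in brackets and dashed lines at 4.23% and 4.16% for all probe sets. LEA proteins stand at 81.8% raised, and photosynthesis at 48.3% lowered. The lists hold named genes, and of all 3188 named probe sets 283 rose and 338 fell, larger shares than the dashed lines.

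Hd3a (LOC4340185), which encodes a florigen made in the leaf, showed the largest fall of any named gene. It had 25.3 and 19.1 at D3 and 1591 and 1882 at D0, and fell by 5.52 ± 0.11 on the log2 scale (adjusted p = 5.59e-13). A bright transcript of unstressed leaves was thus close to background under severe drought. The photoperiod gene Hd1, which acts upstream of it, had 391 and 409.7 at D3 and 169 and 193 at D0 and rose by 1.08. Of 23 probe sets for flowering time and the circadian clock, 2 rose and 1, Hd3a itself, fell, and without D0 replicate 1 the number raised was 1.

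Genes for uptake and assimilation of nutrients were prominent among the falls. AMT3;2 (LOC4334717), for an ammonium transporter, had 117 and 93.3 at D3 and 2156 and 2076 at D0, and fell by 4.15 ± 0.11. AMT3;3 fell by 3.10, NIA1, for nitrate reductase, by 1.97 (a second probe set moved by -0.18) and GLN2, for the plastid glutamine synthetase, by 1.84. Of 19 probe sets for nitrogen, 9 fell and 1 rose, with a median of -0.32. APR1, for a protein like the adenylylsulfate reductase of sulfur assimilation, fell by 3.46, and the phosphate transporter gene Pht1;1 by 2.72, while a second probe set of Pht1;1 moved by 0.84. Of 38 probe sets for phosphate and sulfur, 6 fell and 2 rose, of which 1 was left without D3 replicate 2 or without D0 replicate 1. VIT2 (LOC4346978), for a vacuolar iron transporter, had 295 and 253 at D3 and 4479 and 4579.9 at D0, and fell by 3.97 ± 0.11. IRT1, YSL12 and ZIP2, for other transporters of iron and zinc, fell by 3.30, 3.31 and 2.79, and 11 of the 55 probe sets of the metal list fell and 3 rose (1 without D3 replicate 1). A second probe set of YSL12 did not change (-0.00). The potassium transporter gene HAK17 fell by 3.07, HAK1 by 1.94 and the channel gene AKT1 by 1.93, but KCO2, for a potassium channel, had 602 and 604 at D3 and 26.6 and 25.1 at D0, a rise of 3.89 ± 0.11. Potassium and sodium transport had 8 falls and 2 rises among 33 probe sets. Each of these lists held rises as well as falls.

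Water channels mostly fell where they were called, with 12 of 31 aquaporin probe sets lowered and 2 raised (median -0.59). Lsi6 (LOC4340558), an aquaporin-like channel that carries silicic acid in leaves, had 105 and 103 at D3 and 1761 and 1828 at D0, and fell by 3.92 ± 0.077. PIP1;3, a plasma membrane aquaporin, had 260.3 and 249 at D3 and 2609 and 3205 at D0, and fell by 3.43 ± 0.09. PIP2;2 fell by 2.36, and its other probe set changed by -0.91 and was not called. PIP2;7, the brightest aquaporin named here at D0, had 2614 and 2316 at D3 and 11605 and 11654 at D0, and fell by 2.23.

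The metallothioneins, small cysteine-rich proteins that bind metals, split by gene. MT2B (LOC4326409) had 385 and 435 at D3 and 14709.9 and 14059 at D0, and fell by 5.08 ± 0.13 (adjusted p = 4.75e-12), and 2 of its 3 other probe sets were lowered too. MT2C, measured by 5 probe sets that all rose, had 16218 and 17389 at D3 and 3791 and 3196 at D0 on the brightest of them, a rise of 2.27 ± 0.073. MT1B rose by 2.54. Of 17 probe sets in the family, 6 rose and 5 fell, so the family as a whole had no single direction.

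Every called gene in the list for cytokinin, the hormone that delays leaf ageing, fell. RR9 (LOC4349747), for a type A response regulator, which cytokinin induces, had 68.4 and 65.3 at D3 and 1954 and 2083 at D0, and fell by 4.62 ± 0.089 (adjusted p = 4.62e-13). RR4 fell by 2.77, RR2 by 2.67 and LOGL10, of the family of cytokinin-activating enzymes, by 3.60. Of 36 cytokinin probe sets 10 fell and 0 rose, and without D3 replicate 1 the number raised was 1. Of the auxin response and transport probe sets 11 of 74 rose and 4 fell, with IAA1 rising by 2.66 (0.53 and not called on a second probe set) and IAA24 by 2.42, both for repressors of the auxin response, and the carrier gene PIN5a falling by 3.11. GA20OX3, for an enzyme of gibberellin synthesis, rose by 2.63, with 619 and 624 at D3 and 81.5 and 92.9 at D0.

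Several of the strongest falls were in genes known from defence. LOX9 (LOC4345994), for a lipoxygenase, had 29.1 and 37.5 at D3 and 947 and 1034 at D0, and fell by 4.36 ± 0.097, against -1.66 and -0.94 on its other probe sets. LOX8, its neighbour in the gene order, had 43.8 and 44.6 at D3 and 1072 and 1042 at D0, and fell by 4.16 ± 0.12. The JAZ genes, for repressors of the jasmonate response, were raised in part, with JAZ13 up by 2.96 (199.9 and 206 at D3, 14.2 and 10.2 at D0) and JAZ10 by 2.71 (805 and 822 at D3, 111 and 110.0 at D0). Jasmonate synthesis and JAZ genes together had 5 rises and 6 falls among 40 probe sets. Cht2 (LOC4349267), for a chitinase, had 579.6 and 553 at D3 and 13392 and 15258 at D0, and fell by 4.62 ± 0.095, although its 2 other probe sets fell by 3.93 and moved by -0.45. Cht11 had 207 and 215 at D3 and 3842 and 4092 at D0, and fell by 4.13 ± 0.067, and the germin-like gene GER7 fell by 4.20. Of 28 probe sets for chitinases, germins and pathogenesis proteins 9 fell and 1 rose. Synthesis of diterpenoid phytoalexins, antimicrobial compounds of rice, had 8 falls and 0 rises among 19 probe sets. CYP71Z6 (LOC4329725), for a cytochrome P450, had 49.6 and 45.4 at D3 and 1335 and 1042 at D0, and fell by 4.24 ± 0.13. CPS2, for a diterpene cyclase of the route, fell by 3.67, CYP71Z7 by 3.50 and CYP99A2 by 3.25. CYP71Z6, CYP71Z7, CPS2 and KSL5 follow one another in the gene order, and all 4 fell, by 1.75 to 4.24. The remaining genes among the 15 largest falls were BGLU12, for a beta-glucosidase (21.4 and 25.9 at D3, 1441 and 1207 at D0, with a second probe set at -0.28), AT5, for an acyltransferase (12.4 and 10.6 at D3, 616 and 585 at D0), and the peroxidase gene LOC4344277 (21.3 and 25.6 at D3, 659 and 682 at D0).

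Other lists had fewer members called or members called both ways. Of all 3188 named probe sets 283 rose and 338 fell, which is a nearer measure for these lists than the shares over all probe sets. Of 38 probe sets for housekeeping genes 3 fell and 1 rose, with a median of -0.08, and of 112 for the cell cycle and kinesins (cyclins, their kinases and inhibitors, and replication licensing genes among them) 8 fell and 5 rose, or 3 without D0 replicate 2. Of 13 for autophagy and cysteine proteases, 0 were called, and of 15 for ethylene 1 fell. Antioxidant enzymes had 9 falls and 5 rises among 53 probe sets, with the thioredoxin gene Trx14 up by 2.90. Calcium sensors and their kinases (CBL, calmodulin-like, CIPK and CPK genes) had 11 rises and 6 falls among 95, with CIPK16 up by 3.11 and CIPK14 by 2.92. Expansins and cell wall synthesis had 7 falls and 1 rise among 71, with the expansin gene EXPB3 down by 3.28.

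To see which genes went on changing as the drought deepened, D3 was set against D1 in ZS97. The comparison does not use the D0 arrays, but it shares the D3 arrays with the one above. Between slight and severe drought 459 probe sets rose (0.800% of those tested) and 360 fell (0.627%). salT had 5921 and 5674 at D3 and 263 and 229 at D1, a rise of 4.47 ± 0.17 (adjusted p = 4.73e-09). At D2 it already stood at 5007 and 5236, so most of this rise came before D3. HSP26.7, for a small heat shock protein, had 374 and 367 at D3 and 28.4 and 31.3 at D1, a rise of 3.08 ± 0.1. At D0 it had 30.4 and 26.1, so it was as dim at D1 as in well-watered leaves. HSP23.2, of the same class, rose by 2.43 over D1. RAB16D had 5650.5 and 5478 at D3 and 730.4 and 752 at D1, a rise of 2.88 ± 0.063, SWEET15 rose by 2.69 and LTP-2 by 2.40. JAZ10 had 805 and 822 at D3 and 132 and 103 at D1, a rise of 2.64 ± 0.14, and its neighbour JAZ11 had 433 and 430.1 at D3 and 62.7 and 68 at D1, a rise of 2.46 ± 0.076. The jasmonate list as a whole had 5 rises and 0 falls from D1 to D3. RAB21 and LEA19 were already at 19096 and 18718 and at 5338 and 5037 at D1 and had no called rise from there, but the second probe set of RAB21 did, by 1.03. Among the LEA and dehydrin probe sets 7 of 11 rose between D1 and D3.

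**Figure D4:**
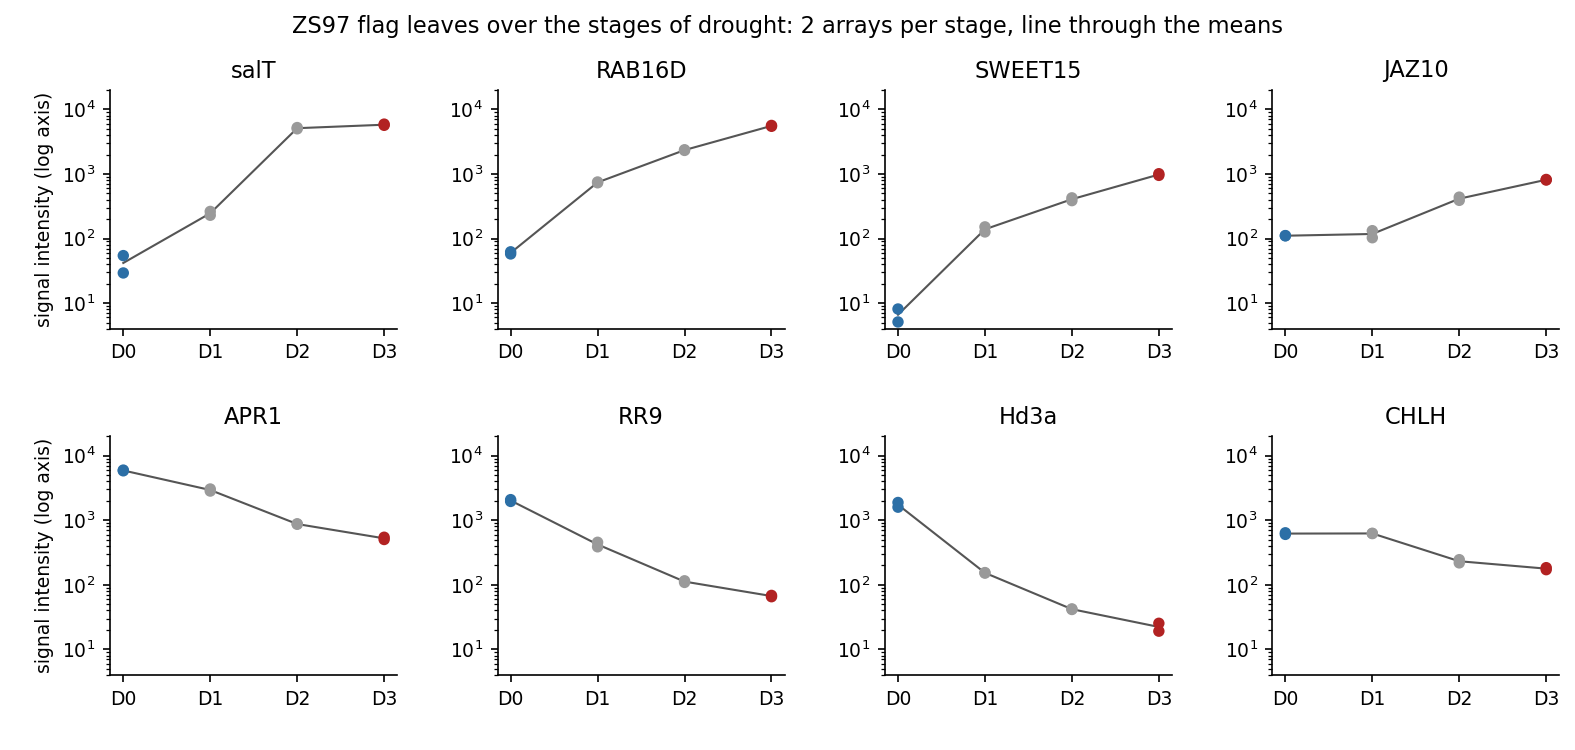
Signal intensity (log axis) of 8 genes on the 2 ZS97 arrays of each stage from D0 to D3, with lines through the means, chosen from the largest changes between D1 and D3. salT rose mainly between D1 (263 and 229) and D2 (5007 and 5236). JAZ10 rose only after D1, where it stood at 132 and 103, and CHLH fell only after D1 (621 and 627).

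The largest falls of named genes between D1 and D3 included a gene of the adenylylsulfate reductase family, a cytokinin response regulator and the florigen gene. APR1 had 545 and 502 at D3 and 3046 and 2828 at D1, and fell by 2.45 ± 0.075 (adjusted p = 5.80e-10). RR9 had 68.4 and 65.3 at D3 and 455 and 387 at D1, and fell by 2.40 ± 0.089, and Hd3a had 25.3 and 19.1 at D3 and 151 and 154 at D1, and fell by 2.15 ± 0.11. CHLH had 171 and 184 at D3 and 621 and 627 at D1, and fell by 1.72 ± 0.087, while its D0 values of 638 and 603 were close to those at D1. These values are from the probe set of CHLH that fell, not from its second one. PDX12, of the vitamin B6 synthesis family, fell by 1.70, HAK17 by 1.68 and Cht2 by 1.63. MADS5, a floral MADS-box gene, had a course of its own, with 22.1 and 24.4 at D0, 78 and 92.9 at D1, 119 and 156 at D2 and 17.2 and 16.2 at D3. Its fall from D1 to D3 was 1.63 and did not pass the 2-fold threshold when the constant was 64 (-0.89). The D1 arrays differed from each other by more than 2-fold on 39 probe sets, all of them higher on replicate 1, against 0 to 9 in the other groups. Without D1 replicate 1 the counts were 494 raised and 324 lowered, and without D1 replicate 2 they were 449 and 432.

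Whether the severe drought response of ZS97 differed from that of IRAT109 was tested as the change in ZS97 minus the change in IRAT109, and the genotypes share no arrays. The difference was positive on 1213 probe sets (2.11% of those tested) and negative on 745 (1.30%). In IRAT109 itself 1963 probe sets rose and 2740 fell at D3 against D0. Of these, 1337 were raised in both genotypes, which is 55.0% of the raised probe sets of ZS97 and 68.1% of those of IRAT109, and 1717 were lowered in both, 71.9% and 62.7%. Only 7 probe sets rose in ZS97 and fell in IRAT109, and 13 fell in ZS97 and rose in IRAT109. Probes that match 1 genotype less well give a dimmer signal there, so levels at D0 are given for both genotypes for many, though not all, of the genes below.

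salT showed the largest positive difference of a named gene, 5.66 ± 0.25 (adjusted p = 1.38e-08). It had 5921 and 5674 at D3 and 29.3 and 54.4 at D0 in ZS97, and 293 and 416 at D3 and 159.9 and 168 at D0 in IRAT109. RAB16D had 5650.5 and 5478 at D3 and 57.7 and 62.3 at D0 in ZS97, and 355 and 371 at D3 and 73.9 and 80.5 at D0 in IRAT109, a difference of 4.17 ± 0.09. Its neighbours RAB21 and RAB16B rose by 8.28 and 8.07 in ZS97 and by 8.80 and 8.74 in IRAT109. ICL had 549 and 529.8 at D3 and 19.2 and 18.9 at D0 in IRAT109 and rose there by 3.99, against 7.14 in ZS97, a difference of 3.15 ± 0.16, and MS differed by 1.39 ± 0.13. Both genotypes therefore raised the glyoxylate cycle genes, and ZS97 raised them further.

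JAZ10, JAZ13 and JAZ11 rose in ZS97 without a called rise in IRAT109. JAZ10 had 805 and 822 at D3 and 111 and 110.0 at D0 in ZS97, and 98.4 and 134 at D3 and 160.2 and 191 at D0 in IRAT109, a difference of 3.26 ± 0.2 (adjusted p = 1.88e-07). JAZ13 had 199.9 and 206 at D3 and 14.2 and 10.2 at D0 in ZS97, and 24.3 and 53.9 at D3 and 60.3 and 39.9 at D0 in IRAT109, a difference of 3.26 ± 0.29. JAZ11 differed by 1.37. DREB1B rose by 2.04 in ZS97 and changed by -0.87 in IRAT109, a difference of 2.91. CBL9, for a calcineurin B-like calcium sensor, moved in opposite directions, with 182 and 156 at D3 and 51.2 and 53.6 at D0 in ZS97, and 70.3 and 81.4 at D3 and 209.9 and 241 at D0 in IRAT109. The chitinase gene Cht5 had 33.8 and 23.8 at D3 and 56 and 47.9 at D0 in ZS97, where it was not called, and changed by -3.73 in IRAT109, a difference of 3.13.

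**Figure D5:**
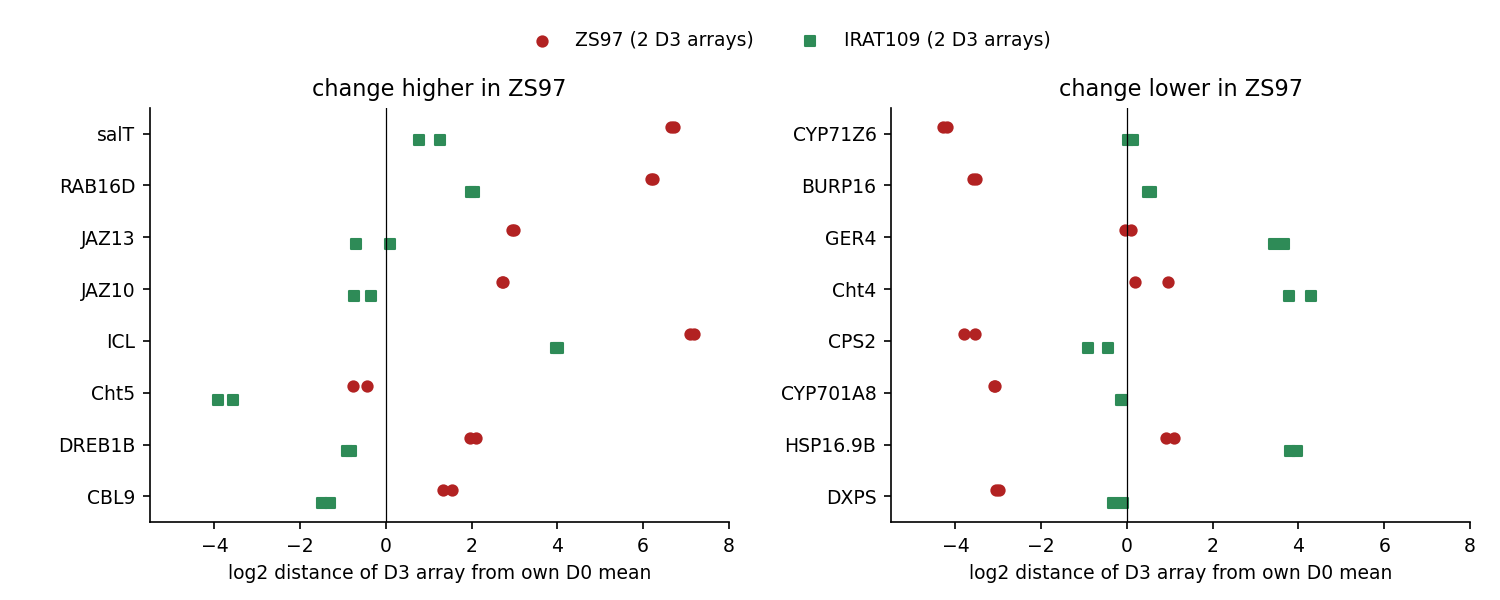
Log2 distance of each D3 array from the D0 mean of its own genotype, for ZS97 (red circles) and IRAT109 (green squares), for the 8 named genes whose change was furthest above that of IRAT109, left, and the 8 furthest below, right. CYP71Z6 and BURP16 lie far below 0 in ZS97 and near it in IRAT109 (changes of 0.09 and 0.53), and GER4 and Cht4 lie high in IRAT109 alone.

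Some negative differences belonged to transcripts with a fall in ZS97 and no called change in IRAT109. CYP71Z6 had 49.6 and 45.4 at D3 and 1335 and 1042 at D0 in ZS97, and 432 and 394 at D3 and 414 and 363 at D0 in IRAT109, a difference of -4.32 ± 0.18 (adjusted p = 1.24e-08). BURP16, for a BURP domain protein, had 46.5 and 44 at D3 and 792 and 628 at D0 in ZS97, and 84.9 and 90.6 at D3 and 56.8 and 54.6 at D0 in IRAT109, a difference of -4.09 ± 0.15. CPS2, CYP701A8 (a P450 of the kaurene oxidase family) and DXPS (an enzyme at the head of the plastid isoprenoid route) differed by -2.99, -2.95 and -2.82. In IRAT109 they had 297 and 412, 1768 and 1802, and 438 and 521 at D3. Others belonged to genes that rose further in IRAT109 and were dim in ZS97, or that fell in both genotypes and further in ZS97, such as PORA (-3.05 in ZS97, -1.15 in IRAT109) and Cht11 (-4.13 in ZS97, -1.86 in IRAT109). GER4 had 7.5 and 10 at D3 and 8.1 and 8.6 at D0 in ZS97, and 348 and 294 at D3 and 11.8 and 14 at D0 in IRAT109, a difference of -3.52 ± 0.14. Cht4 differed by -3.46 and was not called in ZS97. HSP16.9B differed by -2.88 and was raised in ZS97 too, with 39.4 and 47 at D3 and 13.9 and 13.1 at D0, and RefSeq gives its name also as a synonym of its neighbour HSP16.9A.

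The change was lower in ZS97 on 6 of 31 aquaporin probe sets and higher on 1, with PIP2;2 at -1.22 ± 0.099 and PIP2;7 at -1.13 ± 0.11. The other probe set of PIP2;2 had no called difference (-0.53). PIP2;7 had 2614 and 2316 at D3 and 11605 and 11654 at D0 in ZS97, and 5463 and 5265 at D3 and 11887 and 11230.3 at D0 in IRAT109. All 5 probe sets of MT2C rose in ZS97 and had a called difference, with 21029.5 and 21511 at D3 and 16796 and 17097 at D0 in IRAT109 on the brightest, a difference of 1.94 ± 0.1. Of the LEA and dehydrin list 1 of 11 probe sets differed upwards and 1 downwards, of the photosynthesis list 1 and 2 of 29, and of the list of proline and osmolytes 0 and 0 of 18. Hd3a had 25.3 and 19.1 at D3 and 1591 and 1882 at D0 in ZS97, and 12.8 and 16.2 at D3 and 269 and 224 at D0 in IRAT109, and the difference was -2.42 ± 0.15. It was thus dim at D3 in both genotypes, and the genotypes differed in its level at D0.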

How the data were processed

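Flag leaf RNA of 2 rice cultivars at 4 stages, with 2 biological replicates each, was hybridized to 16 Affymetrix rice arrays. The authors deposited a linear signal intensity for each probe set on each array. The labels name MAS5, with no version, and the study's methods name the robust multiarray average, so which of them summarized the probes is not settled here. The arrays were neither rescaled nor normalized again. An intensity below 16 was found for 28.0% to 29.1% of the probe sets of the 4 arrays compared, and dim signal limits the precision there, as does the number of arrays.

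From the deposited values log2(intensity + 16) was computed and fitted with limma 3.58.1 in R 4.3.3, as 1 mean for each of the 8 groups, with 8 residual and 4.28 prior degrees of freedom (residual SD 0.0827 at the median). Calls needed a Benjamini-Hochberg adjusted p under 0.05, taken over 57381 probe sets, together with a fold change over 2. Contrasts were D3 minus D0 in ZS97, that change minus the same change in IRAT109, and D3 minus D1 in ZS97. The fit was tested on simulated data.

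The annotation gives 1 symbol for 22436 probe sets and several for 95. Names were taken from RefSeq synonyms (assembly ASM3414082v1), which also gave the order of neighbouring genes among 17905 genes with a probe set. Named genes were the 15 largest rises and 15 largest falls among called, named genes with D3 and D0 arrays apart, 8 each way for the other contrasts, up to 4 called members of each of 40 lists, and OsBURP03 and OsLEA3-1, each by its probe set of highest mean. Genes named for their place in the gene order, or for opposite changes in the genotypes, were chosen after their values were seen. The comparison, genes and lists were chosen with earlier results of these data known. Lists were matched on symbols and synonyms, and 48 wrong matches were removed. Alternatives are given in the closing section. Promoter sequences were not analysed here.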

Additional observations from a re-analysis of the deposited data

Results flagged for a closer look

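For each of the 42 genes given here, which are not all the genes that differed, the change at D3 in ZS97 differed from that in IRAT109 by the interaction test, and each value here is the change in ZS97 minus the change in IRAT109 in log2 units. Among genes that rose in ZS97 the difference was 5.66 for salT, 4.17 for RAB16D, 3.15 for ICL, 1.39 for MS, 2.22 for HXK4, 1.75 for SWEET2a, 1.94 for MT2C, 1.12 for KCO2 and 1.72 for HSP26.7. The JAZ repressor genes JAZ10, JAZ13 and JAZ11 had 3.26, 3.26 and 1.37. Regulators with a higher change in ZS97 were DREB1B (2.91), CBL9 (2.83), HOX7 (1.68), NAC067 (1.46), MYB4 (1.78) and MYB2 (1.48). A second probe set of MYB4 had no called difference (0.32). PP2C68 rose in both genotypes and less in ZS97 (-1.44), and HSP16.9B likewise (-2.88).

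Among genes that fell in ZS97, the change was lower than in IRAT109 for CYP71Z6 (-4.32), BURP16 (-4.09), CPS2 (-2.99), CYP701A8 (-2.95), DXPS (-2.82), Hd3a (-2.42), Cht11 (-2.27), PORA (-1.90), NIA1 (-1.80), Cht2 (-1.65), BGLU12 (-1.62), LOX9 (-1.29), PIP2;2 (-1.22), PIP2;7 (-1.13) and CYP71Z7 (-1.05). The 2 other probe sets of Cht2 differed by -1.53 and, on one that was dim in ZS97 at D0 and D3, by 2.17, the opposite way. Second probe sets of NIA1 (-0.12) and PIP2;2 (-0.53) had no called difference. The falls went less far than in IRAT109 for AMT3;3 (1.17), HAK17 (1.16), Lsi6 (1.15) and AT5 (1.09). A few further genes were not called in ZS97 itself: GER4 (-3.52) and Cht4 (-3.46) rose in IRAT109, and Cht5 (3.13) fell there. Groups of 2 arrays are too small for a test of single outlying arrays.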

How the results depend on the processing

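The counts for ZS97 D3 against D0 were 2429 raised and 2388 lowered with 8 ZS97 arrays, with an intensity trend and with a replicate block. They were the same with rank products (100 permutations, p under 0.01), and 2428 and 2388 with the 4 arrays of the comparison alone. In the main fit every probe set that changed over 2-fold was called, so the fold threshold set these counts. These alternatives leave the group means unchanged and could hardly move the counts. The labels do not say that a replicate number marks shared plants or days, and the deviations of the ZS97 D3 and D0 arrays with the same number correlated at -0.03 (-0.319 to 0.163 over all pairs of groups). With the replicate block the counts were 1211 and 738 for the difference between genotypes and 458 and 360 for D3 against D1. Leaving out 1 array gave 2442 to 2504 raised and 2375 to 2415 lowered for D3 against D0, 1120 to 1391 higher and 669 to 826 lower in ZS97 for the difference, and 449 to 494 raised and 324 to 432 lowered for D3 against D1.

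The fold threshold set the size of the counts. At a fold over 4 they were 666 and 748 for D3 against D0, 217 and 143 for the difference and 85 and 35 for D3 against D1. With no fold threshold they were 10888 and 9688, 7215 and 4735, and 5784 and 4291. With 1 probe set per gene, where fewer are tested, they were 1494 and 1500, 665 and 359, and 301 and 232. A constant of 64 gave 692 and 473 for the difference, and 209 lowered for D3 against D1. No named gene changed direction under any alternative run. Of the gene values, 2497 also kept their side of the threshold and 23 did not, 22 of them at a fold over 4 and the other MADS5 at a constant of 64. Most named genes were chosen from these same arrays for large called changes, so this outcome was largely set by the choice. It does not measure how stable the results are. Counts of list members moved by over 1.5 times in 153 cases and not in 1287. These were 49 at a fold over 4, 60 with no fold threshold, 12 with a constant of 64, 6 with a constant of 1, 10 with 1 probe set per gene, 6 after quantile normalization and 1 after median centring. Leaving out an array moved 3 (D3 replicate 1), 1 (D3 replicate 2), 3 (D0 replicate 1) and 2 (D0 replicate 2), all of them counts of 5 or fewer.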

Other observations

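Some genes that lie side by side were called in the same direction in ZS97 leaves at D3. Among 17905 genes in order along the chromosomes, each with a probe set, 38 runs of at least 3 neighbours were called in the same direction, 20 raised and 18 lowered, and they hold 126 genes. The longest run had 6 raised genes. The dehydrin genes RAB16D, RAB16C, RAB16B and RAB21 form 1 of them, with rises of 3.40 to 8.28, the phytoalexin genes CYP71Z6, CYP71Z7, CPS2 and KSL5 another, and LOX8 and LOX9 lie in a lowered run with BGLU27. Neighbours of 1 family can share probes, and these runs were counted with no test. Of the 22436 probe sets with 1 symbol, 1706 rose and 1736 fell. With such shares some runs arise even where neighbours change independently, and how many was not worked out. Of the 20 probe sets that moved in opposite directions in the genotypes, the only ones with a named gene were both probe sets of CBL9, at 1.43 and 1.76 in ZS97 and -1.39 and -1.03 in IRAT109, and 1 probe set of CML31, for a calmodulin-like protein, at 1.18 in ZS97 and -1.14 in IRAT109.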
